A study of Mus musculus with 9 samples.

Results

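Cystine import and glutathione synthesis are described here through 10 genes: *Slc7a11*, *Slc3a2*, *Gclc*, *Gclm*, *Gss*, *Gsr*, *Gpx4*, *Txnrd1*, *Srxn1* and *Nfe2l2*. They were found by Ensembl identifier among the 13708 genes of the deposited table, where all 10 had a row, and all 10 were among the 13594 genes tested, which reached 10 normalized counts in 4 or more samples. The genes were chosen from the difference between the genotypes, because *Slc7a11* was known to be higher in *Mrc1Cre* *Xpr1fl/fl* macrophages, and the question was whether its partners moved with it. Their differences are therefore given as a description with no p-value, and whether each gene passed the threshold used for all genes (a limma adjusted p of 0.05) is stated for description only.

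The samples were macrophages (CD45+ F4/80hi CD11blow cells) sorted from livers of E15.5 embryos, 5 *Mrc1Cre* *Xpr1fl/fl* samples and 4 *Xpr1fl/fl* samples measured by bulk RNA-seq. XPR1 exports phosphate from cells. Both genotypes carried 2 floxed *Xpr1* alleles, and only *Mrc1Cre* *Xpr1fl/fl* embryos carried Cre, which was knocked into the *Mrc1* locus and used on 1 allele. *Mrc1* encodes CD206, which most Kupffer cells and also liver sinusoidal endothelial cells express, so *Xpr1* was deleted in the endothelium too, and the effects of Cre, of the altered *Mrc1* allele and of *Xpr1* loss cannot be told apart. The labels do not say whether the samples came from separate embryos, so p-values measure only the spread between these samples.

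SLC7A11 and SLC3A2 together form the exchanger that brings cystine into the cell in return for glutamate. Cystine is reduced to cysteine, which glutamate-cysteine ligase (GCLC and GCLM) and glutathione synthetase (GSS) turn into glutathione, and glutathione reductase (GSR) returns oxidized glutathione to its reduced form. GPX4 uses glutathione to remove lipid peroxides, and the thioredoxin reductase TXNRD1 and the sulfiredoxin SRXN1 serve the parallel thioredoxin branch. NRF2, encoded by *Nfe2l2*, binds antioxidant response elements in many of these genes, and ATF4 also drives *Slc7a11* when amino acids are short.

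The promoters of *Slc7a11* and of 3 partners are shown because they differ in the response elements that they hold. Windows of 300 bases around the start site were taken from RefSeq (build GRCm38.p6), where 8 of the 10 genes matched and *Gclc* and *Gsr* did not. The letters TGACNNNGC (antioxidant response element core), TGAGNNNGC (its G form, added after the sequences were seen) and TGATGNAA (C/EBP-ATF response element) were searched on both strands. The 250 bases before the start site are printed 5′ to 3′ along the gene, with every match in capitals: *Slc7a11* (chr3:50443614-50443863, minus strand), *Srxn1* (chr2:152105274-152105523, plus strand), *Gclm* (chr3:122245307-122245556, plus strand) and *Txnrd1* (chr10:82858956-82859205, plus strand, the only 1 of its 3 windows with a match).
Slc7a11: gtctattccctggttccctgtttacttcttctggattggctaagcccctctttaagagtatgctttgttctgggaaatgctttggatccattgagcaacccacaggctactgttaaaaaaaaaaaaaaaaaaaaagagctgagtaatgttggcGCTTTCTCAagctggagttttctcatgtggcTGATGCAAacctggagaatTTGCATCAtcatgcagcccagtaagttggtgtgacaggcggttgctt
Srxn1: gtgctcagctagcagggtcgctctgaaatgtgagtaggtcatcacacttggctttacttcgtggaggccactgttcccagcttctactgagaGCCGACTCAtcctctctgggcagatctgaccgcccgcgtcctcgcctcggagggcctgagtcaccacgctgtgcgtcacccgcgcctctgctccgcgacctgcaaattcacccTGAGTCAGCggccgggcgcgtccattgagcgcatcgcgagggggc
Gclm: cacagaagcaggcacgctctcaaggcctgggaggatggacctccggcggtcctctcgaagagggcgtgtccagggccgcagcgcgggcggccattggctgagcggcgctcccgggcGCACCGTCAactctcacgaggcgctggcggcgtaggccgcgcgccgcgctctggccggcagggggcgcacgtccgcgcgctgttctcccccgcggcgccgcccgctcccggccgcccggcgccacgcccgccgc
Txnrd1: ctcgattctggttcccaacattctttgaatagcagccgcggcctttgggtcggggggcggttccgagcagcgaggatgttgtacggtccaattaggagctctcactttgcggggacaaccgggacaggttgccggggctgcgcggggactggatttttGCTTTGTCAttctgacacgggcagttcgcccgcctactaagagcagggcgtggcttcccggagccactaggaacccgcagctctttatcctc
In *Slc7a11* the C/EBP-ATF letters occurred on both strands, as TGATGCAA from position −66 and as TTGCATCA from position −47 counted from the start site. These letters stood in 3.97% of all 32851 windows, and 23 windows (0.07%) held them more than once. Of 141 genes in the pathway lists below that had a window, 1 also held them more than once. It was *Slc7a7*, which encodes another partner of SLC3A2 and had a log2 difference of −0.05. No other of the 8 genes had a match to them. The antioxidant response element core was found in *Nfe2l2*, *Srxn1*, *Gclm* and *Txnrd1*. These were 4 of the 13 windows of the 8 genes, against 12.4% of all windows. In *Srxn1* the core lay after the start site. Its G form, found in 17.6% of all windows, occurred at 2 places in *Srxn1* (GCCGACTCA and TGAGTCAGC) and at 1 place in *Slc7a11* (GCTTTCTCA). No matches overlapped in the genes printed. A match describes the letters of the window and was not tested for binding.

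Several facts of the whole series bear on the values. *Xpr1* had 1162.1 ± 84.9 normalized counts in *Mrc1Cre* *Xpr1fl/fl* samples (SD, n = 5) and 1981.6 ± 204.7 in *Xpr1fl/fl* samples (SD, n = 4), and *Mrc1* had 7574.1 ± 1265.6 and 24693.3 ± 2674.1. Totals of normalized counts lay between 26942921 and 28309443 per sample because of the normalization, and absolute depth is unknown. The column names of the table begin with 1 of 3 dates, whose meaning is not stated: *Mrc1Cre* *Xpr1fl/fl* sample 5 and *Xpr1fl/fl* samples 1 to 3 carry the earliest, *Xpr1fl/fl* sample 4 the middle one and *Mrc1Cre* *Xpr1fl/fl* samples 1 to 4 the latest. In a model with a date term, the difference between the genotypes rests on *Mrc1Cre* *Xpr1fl/fl* sample 5 against *Xpr1fl/fl* samples 1 to 3, *Mrc1Cre* *Xpr1fl/fl* samples 1 to 4 inform only the spread, and *Xpr1fl/fl* sample 4, alone on its date, is fitted exactly and adds nothing. Every macrophage marker of a list of 11 was above 0 in every sample, with summed counts of 201769 to 233736 in *Mrc1Cre* *Xpr1fl/fl* and 251826 to 341548 in *Xpr1fl/fl* samples, and 6 of them were lower (limma). Markers of other cells differed to unlike degrees, where 43.1% of all genes tested passed the threshold. All 17 erythroid markers tested were lower, with summed counts of 94259.3 to 310646 in *Mrc1Cre* *Xpr1fl/fl* and 410046 to 655319 in *Xpr1fl/fl* samples, and all 12 hepatocyte markers were lower, with sums of 35597.9 to 46068.5 and 60088.7 to 104024. Of 12 endothelial markers 10 were lower (sums of 6383.4 to 8484.5 and 10542.8 to 14798.1), of 11 neutrophil markers 4 (5380.2 to 20242.2 and 9288.4 to 58996) and of 5 megakaryocyte markers 2 (722.2 to 1037 and 2146.1 to 2578.3). The neutrophil sums of the genotypes overlapped, and in both genotypes the samples of the earliest date were the highest. Of 7 monocyte markers 3 were lower and 1 was higher (7299.6 to 10043.3 and 5413.2 to 8096.3). Apart from 1 megakaryocyte marker, none of these markers was at 0 in any sample. In bulk samples, fewer cells of a type and less RNA per cell cannot be told apart, and the part of these other cells in the differences below was not tested.

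The subunits of the cystine exchanger moved in opposite directions, the light chain far up and the heavy chain slightly down. *Slc7a11* (ENSMUSG00000027737, chromosome 3 of GRCm39, 49846975 to 50398070, minus strand) had 426.2, 319.4, 642.7, 584.8 and 410.5 normalized counts in *Mrc1Cre* *Xpr1fl/fl* samples 1 to 5 and 17.6, 13.6, 36.6 and 13.7 in *Xpr1fl/fl* samples 1 to 4. The lowest *Mrc1Cre* *Xpr1fl/fl* sample stood far above the highest control, and sample 3 was the highest of its genotype in both groups. The mean was 23.4 times higher (476.7 ± 133.1, SD, n = 5, against 20.4 ± 11.0, SD, n = 4), a difference of 4.56 on the scale of log2(normalized count + 1) with a standard error of 0.29 and a 95% confidence interval of 3.91 to 5.20. Within the earliest date, *Mrc1Cre* *Xpr1fl/fl* sample 5 had 410.5 normalized counts against 13.6 to 36.6, a log2 difference of 4.25 with an interval of 3.11 to 5.38. With a pseudocount of 10 the difference was 4.02, since the control counts are low.

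*Slc3a2* (ENSMUSG00000010095, chromosome 19, 8684245 to 8701108, minus strand), the heavy chain, did not rise with its partner. It had 10628.2, 9689.1, 11612.4, 10678.6 and 10538.4 normalized counts in *Mrc1Cre* *Xpr1fl/fl* samples and 12958.5, 10749.2, 12291.8 and 13287.1 in controls. *Mrc1Cre* *Xpr1fl/fl* sample 3 lay above *Xpr1fl/fl* sample 2, so the groups overlapped, and the other *Mrc1Cre* *Xpr1fl/fl* samples lay below every control. The log2 difference was −0.21 (standard error 0.07, 95% confidence interval −0.37 to −0.06), past the threshold, but no longer past it in 6 of the 9 fits that left out 1 sample, without the trend or in the model with a date term.

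SLC3A2 also pairs with other light chains, and its level was compared with theirs per kb of the canonical transcript. *Slc7a11* had 2.21 ± 1.19 normalized counts per kb in controls (SD, n = 4) and 51.7 ± 14.4 in *Mrc1Cre* *Xpr1fl/fl* samples (SD, n = 5). *Slc3a2* had 4823 ± 441.1 per kb in controls and 4160 ± 267.0 in *Mrc1Cre* *Xpr1fl/fl* samples. The amino acid transporter chains *Slc7a8* (4397 ± 512.7 in controls) and *Slc7a7* (1998 ± 165.2) were far more abundant than *Slc7a5* (576.7 ± 87.7) and *Slc7a6* (90.1 ± 22.4). Of the summed level of these 5 light chains, *Slc7a11* made up 0.0187% to 0.0546% in the control samples and 0.535% to 1.09% in *Mrc1Cre* *Xpr1fl/fl* samples, so it stayed the rarest of the 5 in both genotypes. The heavy chain exceeded *Slc7a11* 65.2 to 110.0 times per kb in *Mrc1Cre* *Xpr1fl/fl* samples and 1210 to 3500 times in controls.
*Slc7a6*, a light chain for cationic and neutral amino acids, was also higher, with 622.4 ± 128.7 normalized counts against 338.2 ± 84.2 (log2 difference 0.89, standard error 0.18, limma adjusted p = 0.0029). *Slc7a8* was lower (14685.8 ± 807.6 against 18241.3 ± 2127.0, log2 difference −0.31, standard error 0.08, limma adjusted p = 0.00773), and the groups overlapped for neither gene. *Slc7a5* had 1958.4 ± 122.2 and 2028.2 ± 308.6 normalized counts (log2 difference −0.04, 95% confidence interval −0.24 to 0.16, limma adjusted p = 0.756), and *Slc7a7* had a log2 difference of −0.05 (limma adjusted p = 0.587). None of the 4 passed in the model with a date term.

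**Figure D1:**
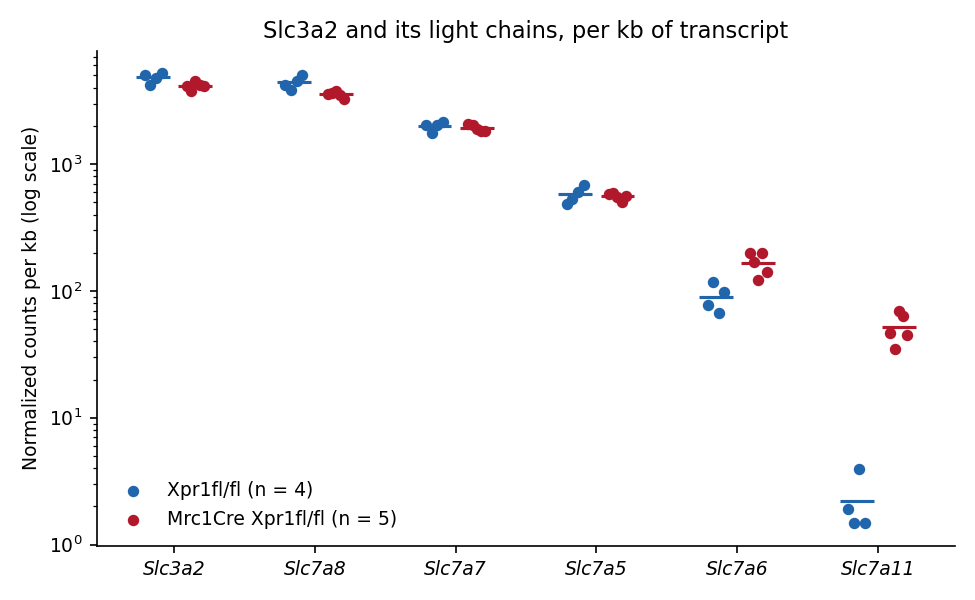
Normalized counts per kb of the canonical transcript (log axis) for *Slc3a2* and 5 light chains that pair with it, with 1 point per sample and lines at the group means, in blue for *Xpr1fl/fl* (n = 4) and red for *Mrc1Cre* *Xpr1fl/fl* samples (n = 5). *Slc7a11* rises from 2.21 to 51.7 per kb on average and remains below *Slc7a6* in every sample.

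Glutathione synthesis divided by subunit. *Gclm* (ENSMUSG00000028124, chromosome 3, 122039126 to 122065061, plus strand), the modifier subunit of glutamate-cysteine ligase, had 5542.3, 4703.1, 5686.0, 5255.7 and 5219.4 normalized counts in *Mrc1Cre* *Xpr1fl/fl* samples and 3370.6, 3699.2, 4735.7 and 4829.0 in controls. Only *Mrc1Cre* *Xpr1fl/fl* sample 2 fell within the range of the controls, which spread widely. The means were 5281.3 ± 377.7 and 4158.6 ± 733.6, a log2 difference of 0.36 (standard error 0.11, 95% confidence interval 0.13 to 0.59). The difference was past the threshold, but not without *Xpr1fl/fl* sample 2, after quantile normalization or in the model with a date term, where it was 0.42 with an interval of 0.05 to 0.79.
*Gclc* (ENSMUSG00000032350, chromosome 9, 77661797 to 77701770, plus strand), the catalytic subunit, had 1990.9, 1802.2, 2096.7, 2010.1 and 2126.7 normalized counts in *Mrc1Cre* *Xpr1fl/fl* samples and 1940.8, 1956.6, 2123.5 and 2276.7 in controls. The groups overlapped over most of their range. The log2 difference was −0.05 (95% confidence interval −0.19 to 0.10), and 0.08 in the model with a date term (interval −0.14 to 0.31). *Gss* (ENSMUSG00000027610, chromosome 2, 155405096 to 155455505, minus strand), which adds glycine to complete glutathione, had 775.8 to 864.1 normalized counts in *Mrc1Cre* *Xpr1fl/fl* samples and 806.3 to 920.4 in controls, a log2 difference of −0.07 (95% confidence interval −0.20 to 0.07). Neither passed the threshold, and the intervals exclude a change as large as that of *Srxn1* in either direction.

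Of the chosen genes, *Gsr*, which recycles glutathione, was higher and *Gpx4*, which uses it, was lower. Other glutathione genes, given below, went in both directions. *Gsr* (ENSMUSG00000031584, chromosome 8, 34142551 to 34188192, plus strand) had 4999.4, 4848.5, 5267.6, 5006.5 and 5052.3 normalized counts in *Mrc1Cre* *Xpr1fl/fl* samples and 4533.3, 4094.0, 4663.1 and 4431.0 in controls. Every *Mrc1Cre* *Xpr1fl/fl* sample lay above every control, by a small margin. The log2 difference was 0.19 (standard error 0.05, 95% confidence interval 0.08 to 0.29), and the gene was past the threshold in each fit that left out 1 sample but not after scaling to the 75th percentile, after quantile normalization or in the model with a date term.
*Gpx4* (ENSMUSG00000075706, chromosome 10, 79883000 to 79892273, plus strand), the selenoenzyme that removes lipid peroxides, had 3761.3, 3401.7, 3570.0, 3441.6 and 3803.0 normalized counts in *Mrc1Cre* *Xpr1fl/fl* samples and 4601.1, 3872.1, 4281.6 and 4129.4 in controls. Every *Mrc1Cre* *Xpr1fl/fl* sample lay below every control. The log2 difference was −0.23 (standard error 0.06, 95% confidence interval −0.36 to −0.10), and −0.16 in the model with a date term (interval −0.39 to 0.07).

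Both chosen genes of the thioredoxin branch were higher, but of 21 other genes of these systems, given below, 8 were lower and 4 higher. *Srxn1* (ENSMUSG00000032802, chromosome 2, 151947436 to 151957687, plus strand), which repairs overoxidized peroxiredoxins, had 1803.8, 1379.0, 1870.2, 1693.4 and 1491.5 normalized counts in *Mrc1Cre* *Xpr1fl/fl* samples and 1026.4, 1035.2, 983.8 and 1231.7 in controls. No *Mrc1Cre* *Xpr1fl/fl* sample reached down to the highest control. The mean was 54.1% higher (1647.6 ± 207.7 against 1069.2 ± 110.6), a log2 difference of 0.62 with a standard error of 0.10 and a 95% confidence interval of 0.40 to 0.84. Only *Srxn1* and *Slc7a11* of the 10 genes passed in the model with a date term, where *Srxn1* had a log2 difference of 0.56 (interval 0.22 to 0.89).
*Txnrd1* (ENSMUSG00000020250, chromosome 10, 82669785 to 82733546, plus strand), the cytosolic thioredoxin reductase, had 13900.7, 12092.6, 15169.4, 13393.8 and 12901.6 normalized counts in *Mrc1Cre* *Xpr1fl/fl* samples and 10823.1, 9962.8, 11180.9 and 12069.8 in controls. The lowest *Mrc1Cre* *Xpr1fl/fl* sample was barely above the highest control. The log2 difference was 0.29 (standard error 0.07, 95% confidence interval 0.13 to 0.45) and 0.28 within the earliest date (interval 0.01 to 0.54).

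*Nfe2l2* (ENSMUSG00000015839, chromosome 2, 75504739 to 75534985, minus strand), the regulator itself, had 3966.7, 3737.2, 4057.2, 3848.5 and 3701.8 normalized counts in *Mrc1Cre* *Xpr1fl/fl* samples and 3341.3, 3261.1, 3062.3 and 3006.7 in controls. Its groups stood apart, with little spread in either. The log2 difference was 0.29 (standard error 0.05, 95% confidence interval 0.18 to 0.40) and 0.20 in the model with a date term (interval 0.01 to 0.39). The measured RNA does not give the amount of NRF2 protein, which is mostly set by its breakdown.

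Apart from *Slc7a11*, whose rise chose the set, 5 of the 9 genes were higher, 2 were lower (*Slc3a2* and *Gpx4*) and 2 passed in neither direction (*Gclc* and *Gss*). Over all genes tested, 43.1% passed the same threshold, 21.5% higher and 21.6% lower, and nothing is read from the count of the chosen genes beside this share. For 6 of the 10 genes the groups did not overlap (*Slc7a11*, *Srxn1*, *Txnrd1*, *Nfe2l2* and *Gsr* higher, *Gpx4* lower), against 34.1% of all genes tested. Apart from *Slc7a11*, the 9 genes had log2 differences between −0.23 and 0.62, with a median of 0.19 beside 0.00497 for all genes tested. The partners that were higher differed by 13.6% to 54.1% in mean normalized counts, whereas *Slc7a11* differed by a factor of 23.4. In the model with a date term, 2 of the 10 passed, against 8.78% of all genes. For all 8 genes past the threshold, *Mrc1Cre* *Xpr1fl/fl* sample 5 lay outside the range of the 3 controls of its date, in the direction of the pooled difference. These samples are part of the pooled difference, so this is not a separate check of it. In the pathway lists below, the same held for 85 of the 96 genes past the threshold. The share over all genes past the threshold is not given, so nothing is read from these counts.

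**Figure D2:**
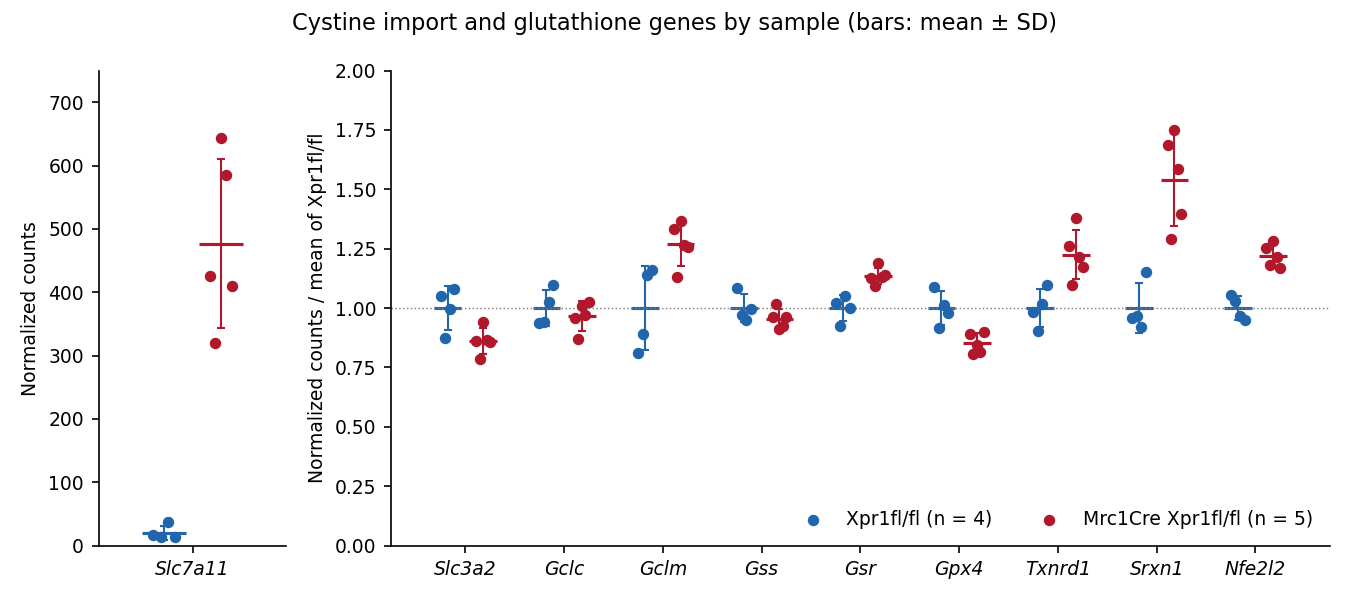
Normalized counts of *Slc7a11* (left) and of the other 9 genes divided by their *Xpr1fl/fl* mean (right), with 1 point per sample and bars for the mean ± SD, in blue for *Xpr1fl/fl* (n = 4) and red for *Mrc1Cre* *Xpr1fl/fl* samples (n = 5). The *Mrc1Cre* *Xpr1fl/fl* points of *Srxn1*, *Txnrd1*, *Nfe2l2* and *Gsr* lie above all controls and those of *Gpx4* below, and the groups overlap for *Slc3a2*, *Gclc*, *Gclm* and *Gss*.

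**Figure D3:**
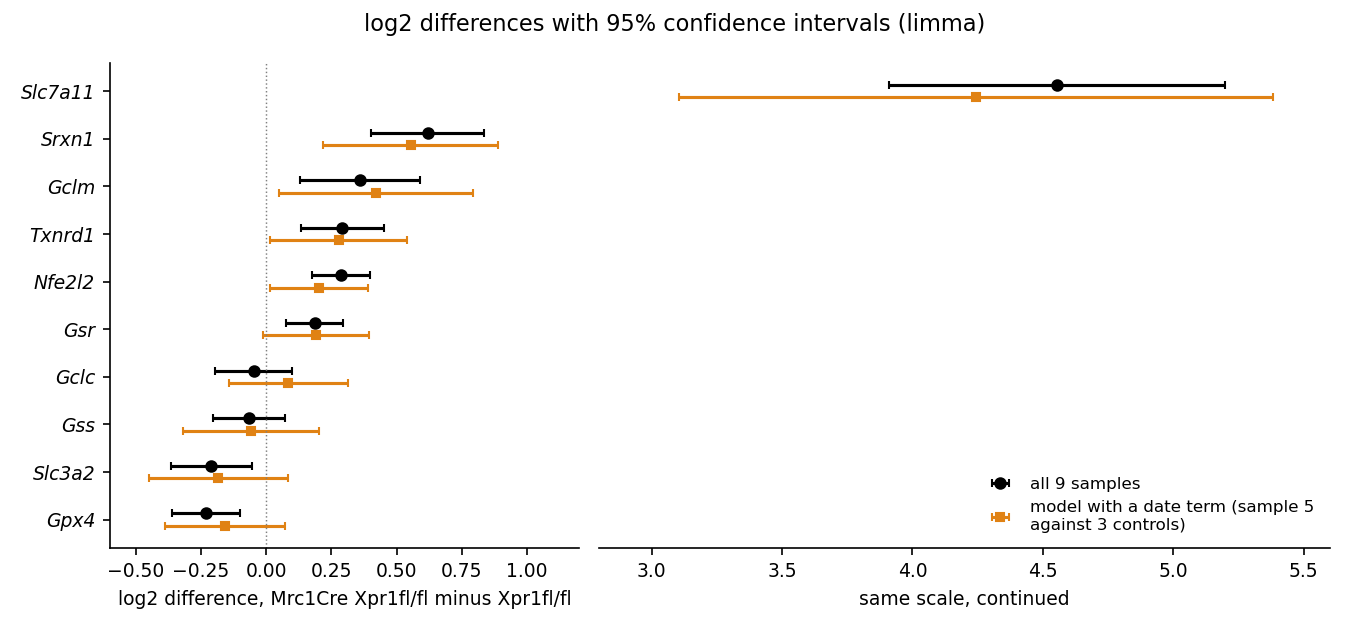
The log2 difference of each gene (*Mrc1Cre* *Xpr1fl/fl* minus *Xpr1fl/fl*) with its 95% confidence interval from limma, unadjusted for the number of genes, over all 9 samples (black) and in the model with a date term (orange). *Slc7a11*, at 4.56 and 4.25, is on the continued axis at the right, and the orange intervals of *Gsr*, *Gclc*, *Gss*, *Slc3a2* and *Gpx4* include 0.

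The same *Mrc1Cre* *Xpr1fl/fl* samples were low or high in several genes. Sample 2 was the lowest of its genotype in 8 of the 10 genes, all but *Gss* and *Nfe2l2*, and sample 3 was the highest in 7, which were *Slc7a11*, *Slc3a2*, *Gclm*, *Gsr*, *Txnrd1*, *Srxn1* and *Nfe2l2*. Among the controls, sample 4 was the highest in 5 genes and sample 2 the lowest in 5. *Mrc1Cre* *Xpr1fl/fl* sample 2 also had the lowest summed erythroid markers, 94259.3 normalized counts, and a part of this in its lower values was not tested. Per kb, the control levels fell in the order *Slc3a2* (4823), *Gpx4* (4402), *Txnrd1* (3311), *Gsr* (1657), *Nfe2l2* (881.7), *Gclm* (655.0), *Gclc* (602.0), *Gss* (431.7), *Srxn1* (148.4) and *Slc7a11* (2.21). The ranges of neighbours in this order overlapped among controls for *Slc3a2* and *Gpx4* and for *Gclm* and *Gclc*, and for no other pair of neighbours. In *Mrc1Cre* *Xpr1fl/fl* samples the means of *Txnrd1* (4058) and *Gpx4* (3749) stood in the reverse order, with overlapping ranges, and *Gclm* (831.8) was clear of *Gclc* (581.9).

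Other genes that NRF2 is known to drive passed in both directions. Of 31 genes in this list, 9 were higher, 10 were lower and 12 passed in neither direction (limma), with a median log2 difference of −0.04. Of all genes tested, 21.5% were higher and 21.6% lower, which stands beside the counts of this and each later list. Nothing is read from these counts by themselves. *Nqo1*, a quinone reductase often read as a gauge of NRF2, had 52.3, 22.7, 51.9, 50.6 and 55.7 normalized counts in *Mrc1Cre* *Xpr1fl/fl* samples and 65.1, 71.4, 63.4 and 89.8 in controls. Its *Mrc1Cre* *Xpr1fl/fl* samples lay below every control, yet the log2 difference of −0.68 (standard error 0.26) had a limma adjusted p of 0.0586, and it was −0.25 in the model with a date term. *Nqo1* did pass, as lower, with a pseudocount of 10 and after scaling to the 75th percentile. It also passed with the replicate number as a block and without *Mrc1Cre* *Xpr1fl/fl* sample 5. *Hmox1*, heme oxygenase, was lower (111806 ± 15074.4 against 150510 ± 28551.8, log2 difference −0.42, limma adjusted p = 0.0359), with overlapping groups. *Hmox1* lost this call in 6 of the 9 fits that left out 1 sample and without the trend. The call was also lost after quantile normalization (log2 difference −0.13) and in the model with a date term (log2 difference −0.21). The largest falls were in enzymes of detoxification: *Gsta4*, which conjugates lipid aldehydes to glutathione, had 26.4 ± 7.1 against 146.7 ± 25.8 normalized counts (log2 difference −2.45, limma adjusted p = 2.6e-05), and the epoxide hydrolase *Ephx1* had 362.3 ± 116.4 against 1830.8 ± 423.8 (log2 difference −2.37, limma adjusted p = 4.4e-05). *Mgst1*, a microsomal glutathione transferase, fell by 1.41 on the log2 scale (limma adjusted p = 0.00437), and by 0.54 in the model with a date term, where it did not pass.
The 9 genes of the list that were higher, named after their values were seen, were *Abcc1*, *Me1*, *Sqstm1*, *Osgin1*, *G6pdx*, *Pgd*, *Prdx1*, *Tkt* and *Taldo1*. *G6pdx*, the first enzyme of the pentose phosphate pathway, had 9331.7 against 6771.1 normalized counts on average (log2 difference 0.46, standard error 0.05, limma adjusted p = 4.7e-05), and *Pgd* had 15243.3 against 11157.5 (log2 difference 0.45, limma adjusted p = 4.5e-05). *Me1* differed by 0.73 on the log2 scale (limma adjusted p = 0.00211), and *Abcc1*, which exports glutathione conjugates, also by 0.73 (limma adjusted p = 8.8e-05). *Idh1*, which like *G6pdx*, *Pgd* and *Me1* makes NADPH, was lower (log2 difference −0.20, limma adjusted p = 0.00917). In the model with a date term, 6 genes of the list passed, of which *Abcc1*, *G6pdx*, *Pgd* and *Osgin1* were higher and *Gsta4* and *Ephx1* lower, and *Me1* (limma adjusted p = 0.0748) and *Idh1* (limma adjusted p = 0.107) did not pass.

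Of 13 genes that control NRF2, 6 were higher, 1 was lower and 6 passed in neither direction, with a median log2 difference of 0.14. *Keap1*, the adaptor that marks NRF2 for breakdown, had 2114.0, 2350.2, 2042.2, 2292.7 and 2398.1 normalized counts in *Mrc1Cre* *Xpr1fl/fl* samples and 1991.5, 1933.0, 1778.0 and 1845.5 in controls (log2 difference 0.25, standard error 0.06, limma adjusted p = 0.00824). Its call was lost after scaling to the 75th percentile, after quantile normalization and in the model with a date term. *Bach1*, a repressor at antioxidant response elements, had 4194.0 ± 303.8 against 2754.5 ± 109.1 (log2 difference 0.60, limma adjusted p = 3.8e-05) and passed in the model with a date term (log2 difference 0.40, limma adjusted p = 0.0157). *Sqstm1*, whose protein p62 binds KEAP1, had 12022.4 ± 1505.4 against 8320.6 ± 490.2 (log2 difference 0.52, limma adjusted p = 0.000791). *Btrc*, which takes part in a second route of NRF2 breakdown, was the lower gene (log2 difference −0.46, limma adjusted p = 0.000753). In the model with a date term 2 genes of the list passed, both higher, and *Sqstm1* (limma adjusted p = 0.0676) and *Btrc* (limma adjusted p = 0.0871) did not pass.

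Of 26 other glutathione genes tested, 13 were lower, 4 were higher and 9 passed in neither direction, with a median log2 difference of −0.26. Besides *Chac1*, the higher genes were *Ggct*, *Glrx* and *Lap3* (log2 differences 0.72, 0.63 and 0.35), named after their values were seen. With a date term, their differences were 0.79, 0.64 and 0.34. The peroxidase *Gpx1*, also named after its values were seen, was lower (log2 difference −0.77, and −0.57 with a date term). *Mgst3*, a microsomal glutathione transferase, had 321.0, 219.2, 329.0, 256.8 and 426.2 normalized counts in *Mrc1Cre* *Xpr1fl/fl* samples and 964.8, 789.0, 1032.5 and 961.9 in controls (log2 difference −1.62, limma adjusted p = 4.3e-05). *Chac2*, which degrades glutathione, fell by 1.00 (limma adjusted p = 0.00208) and the mitochondrial glutaredoxin *Glrx5*, used for iron-sulfur clusters and heme, fell by 0.92 on the log2 scale (limma adjusted p = 0.000261). Neither passed in the model with a date term, where the differences were −0.60 and −0.45. *Chac1*, a glutathione-degrading enzyme under ATF4, was at low levels of 15.6 to 20.2 normalized counts in *Mrc1Cre* *Xpr1fl/fl* samples and 4.7 to 15.1 in controls (log2 difference 0.99, limma adjusted p = 0.0352), and lost its call in 7 of the 9 fits that left out 1 sample and in the model with a date term. In that model, 2 genes of the list were higher and 3 lower.
Of 12 genes for other sources and uses of cysteine, 6 were lower, 3 were higher and 3 passed in neither direction, with a median log2 difference of −0.33. *Tst*, a sulfur transferase, had 77.2 ± 25.2 against 201.0 ± 28.0 normalized counts (log2 difference −1.41, limma adjusted p = 0.000295). *Cbs*, which opens the route from methionine to cysteine, had 38.0 ± 12.5 against 91.8 ± 56.2 (log2 difference −1.15, limma adjusted p = 0.0184), and *Xpr1fl/fl* sample 4 had 176.0 of it. *Cdo1*, which breaks cysteine down, had 41.5 ± 15.1 against 68.0 ± 7.7 (log2 difference −0.77, limma adjusted p = 0.0319), with overlapping groups. It lost this call in 6 of the 9 fits that left out 1 sample, and after quantile normalization both *Cbs* and *Cdo1* lost theirs. In the model with a date term 1 gene of the list was higher and 1 lower, and none of these 3 passed: *Tst* differed by −0.63, *Cbs* by −0.16 and *Cdo1* by −0.40 on the log2 scale. Hepatocytes express *Tst*, *Cbs* and *Cdo1* strongly, and the part of the lower hepatocyte markers in these differences was not tested.

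Among 21 other genes of the thioredoxin and peroxiredoxin systems, 8 were lower, 4 were higher and 9 passed in neither direction, with a median log2 difference of −0.12. *Prdx2*, a peroxiredoxin abundant in red cells, had 5221.2, 5067.7, 5725.7, 4704.9 and 6959.5 normalized counts in *Mrc1Cre* *Xpr1fl/fl* samples and 9305.4, 8390.2, 10045.2 and 10510.6 in controls (log2 difference −0.80, limma adjusted p = 0.000182). *Mrc1Cre* *Xpr1fl/fl* sample 5, the highest of its genotype, also had the highest erythroid sum of its genotype (310646 normalized counts). The other extremes differed. *Prdx2* was lowest in *Mrc1Cre* *Xpr1fl/fl* sample 4 and the erythroid sum in sample 2 (94259.3). Among controls *Prdx2* was highest in sample 4 and the erythroid sum in sample 3 (655319). A part of erythroid RNA in this difference was not tested. *Txnip*, which binds thioredoxin, fell by 0.67 (limma adjusted p = 6.1e-05) and the mitochondrial reductase *Txnrd2* also fell by 0.67 on the log2 scale (limma adjusted p = 0.000213), opposite to *Txnrd1*. In the model with a date term 1 gene of the list was higher and 2 were lower. *Txnip* passed there (log2 difference −0.62, limma adjusted p = 0.0232) and *Prdx2* (−0.41) and *Txnrd2* (−0.40) did not.

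The ATF4 response was mixed. *Atf4* itself had 4551.2 ± 246.9 and 4516.2 ± 433.7 normalized counts (log2 difference 0.01, 95% confidence interval −0.13 to 0.16, limma adjusted p = 0.884), and the sign of this difference turned under several alternatives. The measured RNA does not give the amount or activity of ATF4 protein. Of 28 genes in the list, 12 were higher, 6 were lower and 10 passed in neither direction, with a median log2 difference of 0.15, and 4 were higher and 2 lower in the model with a date term. *Trib3*, a pseudokinase induced by ATF4, had 122.6, 90.9, 217.1, 143.4 and 114.3 normalized counts in *Mrc1Cre* *Xpr1fl/fl* samples and 25.8, 48.5, 30.4 and 42.9 in controls (log2 difference 1.85, standard error 0.26, limma adjusted p = 0.000275). Like *Slc7a11*, it was highest in *Mrc1Cre* *Xpr1fl/fl* sample 3 and lowest in sample 2. This order was common: of its genotype, sample 2 was the lowest in 8 of the 10 chosen genes and sample 3 the highest in 7. *Slc3a2*, which was lower, was among both. *Nupr1*, a small stress-induced nuclear protein, had 405.5 ± 49.9 against 136.5 ± 33.1 (log2 difference 1.59, limma adjusted p = 4.1e-05) and passed in the model with a date term (limma adjusted p = 0.0157), where *Trib3* had a limma adjusted p of 0.05002. The glycine transporter *Slc6a9*, which erythroid cells need for heme, was lower (303.2 ± 111.2 against 984.1 ± 166.0, log2 difference −1.75, limma adjusted p = 0.000125), also in the model with a date term (log2 difference −0.94, limma adjusted p = 0.0465). *Asns*, the asparagine synthetase that ATF4 induces, named after its values were seen, was lower (log2 difference −0.58, limma adjusted p = 0.000785). It did not pass in the model with a date term (log2 difference −0.43). Also named after their values were seen, *Atf5*, *Slc38a2* and *Sesn2* were higher (log2 differences 0.82, 0.73 and 0.46) and *Pck2* was lower (−0.91). With a date term, the differences of these genes were 0.91, 0.56, 0.51 and −0.89.

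Of 22 genes of other selenoproteins and of selenium handling, 7 were higher, 4 were lower and 11 passed in neither direction, with a median log2 difference of 0.04. The balance turned to 3 higher and 6 lower after scaling to the 75th percentile, 3 and 5 after quantile normalization, and 1 and 3 in the model with a date term. *Lrp8*, a receptor that takes up selenoprotein P, had 505.1 ± 63.2 against 258.0 ± 18.9 normalized counts (log2 difference 0.96, limma adjusted p = 6.1e-05), whereas *Selenop*, selenoprotein P itself, had 46042.9 ± 3049.4 against 84126.2 ± 12935.7 (log2 difference −0.86, limma adjusted p = 8.8e-05). *Scly*, which frees selenium from selenocysteine, fell by 0.77 on the log2 scale (limma adjusted p = 5.3e-05). All 3 passed in the model with a date term.
Of 14 genes of lipid peroxide formation and defence, 4 were higher, 4 were lower and 6 passed in neither direction, with a median log2 difference of −0.05, and 1 of them passed, as higher, in the model with a date term. *Ptgs2*, cyclooxygenase 2, had 135.6 ± 39.8 against 66.5 ± 21.6 normalized counts (log2 difference 1.01, limma adjusted p = 0.00746), with 98.8 in *Xpr1fl/fl* sample 3 and overlapping groups. The lipoxygenases *Alox5* (log2 difference −1.17, limma adjusted p = 0.0306) and *Alox12* (log2 difference −1.03, limma adjusted p = 0.019) were lower with overlapping groups, and none of the 3 passed in the model with a date term, where *Ptgs2* differed by 0.33, *Alox5* by −1.20 and *Alox12* by −0.07. *Alox5* lost its call in 5 and *Alox12* in 2 of the fits that left out 1 sample, and both lost it after quantile normalization.

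Over the 9 lists together, 45 of the 161 genes were higher and 51 were lower. The share past the threshold was 59.6%, beside 43.1% of all genes tested. Scaling to the 75th percentile left 35 higher and 60 lower, and over all genes 35% of those past the threshold were then higher, against 49.9%. In the model with a date term 15 genes of the lists were higher and 12 lower.

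**Figure D4:**
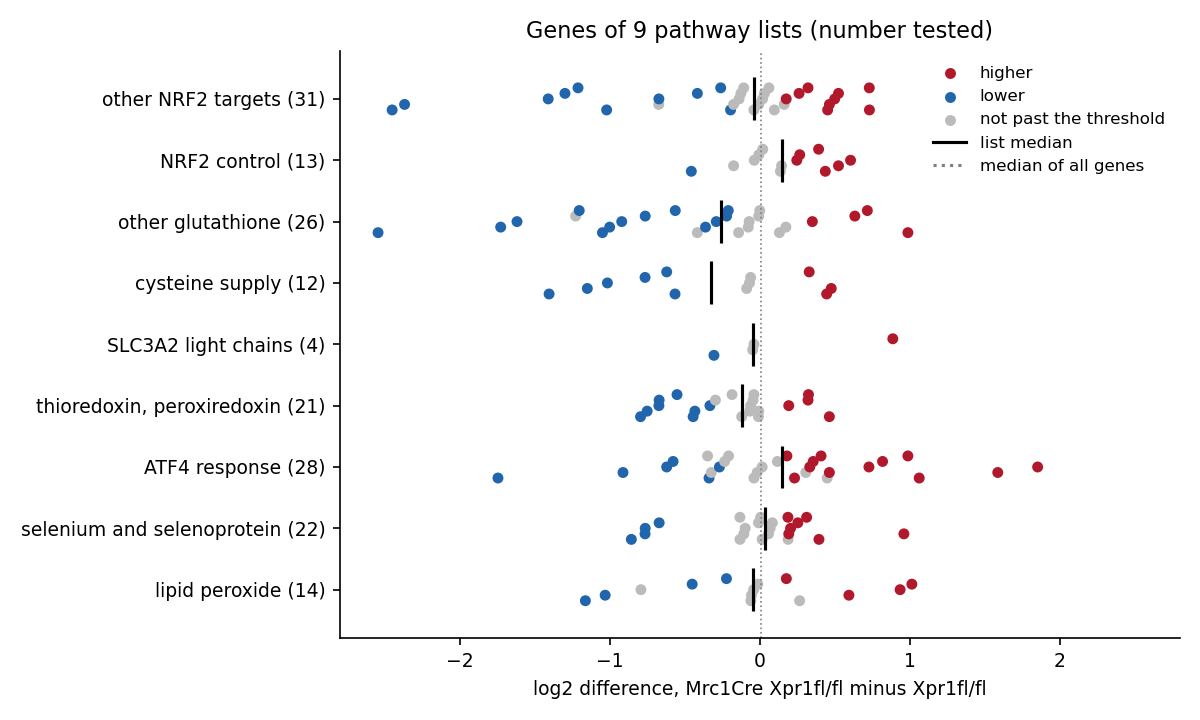
The log2 difference (*Mrc1Cre* *Xpr1fl/fl* minus *Xpr1fl/fl*) of each tested gene in 9 pathway lists, with 1 point per gene in red (higher past the threshold), blue (lower) or grey (neither), a black line at the list median and a dotted line at the median of all genes (0.00497). Medians lie between −0.33 for cysteine supply and 0.15 for the ATF4 response, and every list holds genes on both sides of 0.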

How the data were processed

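RNA of sorted macrophages from 5 *Mrc1Cre* *Xpr1fl/fl* and 4 *Xpr1fl/fl* samples was sequenced. Per the labels, stranded mRNA libraries were made. Per the paper, they were quantified by the authors with salmon on GRCm39 and imported with tximport. The deposited table gives a non-negative signal for each gene, which is the count that the authors normalized with DESeq2 (FastQC and DESeq2, no versions, in the submitters' processing notes). All columns were matched to samples, and 0 columns belonged to no sample. The authors' count model was not repeated: of the values under 10, only 26.0% to 49.7% per sample came within 0.05 of a whole multiple of the best-matching step (10% by chance), which is too few to recover reads, and depth is unknown.

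Symbols, coordinates and canonical transcript lengths came from GENCODE for GRCm39, and 13698 genes had a symbol. Differences (*Mrc1Cre* *Xpr1fl/fl* minus *Xpr1fl/fl*) were fitted with limma 3.58.1 in R 4.3.3 (eBayes with trend) on log2(normalized count + 1), which understates changes of low genes. Genes had to reach 10 normalized counts in 4 or more samples, p-values were adjusted by Benjamini-Hochberg over all 13594 genes, and the threshold was 0.05. "Higher" and "lower" mean past this threshold. The fit was tested on simulated data. The alternatives were pseudocounts of 0.5 and 10, no filter or one of 50, 75th percentile scaling, quantile normalization, no trend, robust fitting, the replicate number as a block, a date term, and each sample left out.

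The genes and lists were chosen with earlier results of these data known, and some lists share genes. Named were the 10 genes, *Xpr1*, *Mrc1*, *Hmox1*, *Nqo1*, *Keap1*, *Bach1*, *Atf4*, *Chac1*, *Slc7a5* and *Txnip*, and for each pathway list up to 3 genes with the largest absolute difference among those past the threshold whose mean reached 50 normalized counts. *Slc7a7*, *Asns*, *Idh1*, *Atf5*, *Slc38a2*, *Sesn2*, *Pck2*, *Gpx1*, *Glrx*, *Ggct*, *Lap3* and the higher NRF2 targets fall outside this rule. Figures were drawn with matplotlib 3.10.9.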

Additional observations from a re-analysis of the deposited data

Results flagged for a closer look

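*Xpr1*, *Mrc1* and the genes named outside the naming rule were not searched here. Each of the other named genes was searched, in each genotype, for 1 sample far from the rest. Such a sample was found in 4 of 84 groups of 4 or 5 samples, and chance gives about 1 in 20. None of the 10 cystine and glutathione genes was among them. *Mrc1Cre* *Xpr1fl/fl* sample 2 had 22.7 normalized counts of *Nqo1* against 50.6 to 55.7 in the other *Mrc1Cre* *Xpr1fl/fl* samples. *Mrc1Cre* *Xpr1fl/fl* sample 5 had 121.7 of *Tst* against 60.1 to 71.6. *Xpr1fl/fl* sample 4 had 176.0 of *Cbs* against 58.9 to 66.9 in the other controls, and *Xpr1fl/fl* sample 3 had 98.8 of *Ptgs2* against 54.3 to 58.1.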

How the results depend on the processing

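The log2 difference of *Slc7a11* stayed above 0 under all 19 alternatives and moved by more than the spread between replicates only with a pseudocount of 10 (4.02). Without 1 sample at a time it was 4.41 to 4.87. The date term moved every count: 577 genes were then higher and 617 lower over all genes, 15 and 12 over the pathway lists, and 2 and 0 of the 10 genes. With each sample left out, 2491 to 3050 genes were higher and 2324 to 3031 lower over all genes, 38 to 45 and 43 to 51 over the lists, and 5 to 6 and 1 to 2 of the 10 genes. The lower count of the 10 was 1 without the trend and without *Mrc1Cre* *Xpr1fl/fl* sample 1, 2 or 4 or *Xpr1fl/fl* sample 1, 3 or 4, since *Slc3a2* no longer passed. The sign turned for *Gclc* in the model with a date term (0.085), for *Slc7a5* in the model with a date term (0.067) and without *Xpr1fl/fl* sample 4 (0.047, the highest of −0.118 to 0.047 over the samples left out), and for *Atf4* after 75th percentile scaling (−0.064), after quantile normalization (−0.097), with the replicate number as a block (−0.0076), and without *Mrc1Cre* *Xpr1fl/fl* sample 5 (−0.0076) or *Xpr1fl/fl* sample 2 (−0.021) or 3 (−0.023), over a range of −0.023 to 0.072 with each sample left out. None of these 3 genes passed the threshold in any of these fits. Leaving out *Xpr1fl/fl* sample 3 reduced the lower genes of the lipid peroxide list from 4 to 1, and leaving out *Mrc1Cre* *Xpr1fl/fl* sample 1 reduced them to 2. Same-numbered samples of the genotypes did not deviate together (correlations −0.03, 0.15, −0.01 and −0.03), so they share only a number. With it as a block, 3146 genes were higher and 3080 lower, and 6 and 2 of the 10 genes. The cause of these shifts was not tested. Depth is unknown, and the low control counts of *Slc7a11*, *Nqo1*, *Chac1*, *Gsta4* and *Cbs* limit the precision of their differences.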
